A study of Aspergillus nidulans with 8 samples.

Results

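The endoplasmic reticulum folding genes of Aspergillus nidulans, a filamentous fungus, were followed over 3 stresses on the 8 arrays of the series. They were 5 genes of 10550 on the array, taken by their locus identifiers: bipA (ANID_02062), pdiA (ANID_07436), prpA (ANID_00075), clxA (ANID_03592) and hacA (ANID_09397). The identifiers come from the probe annotation, in which each gene had 1 probe spotted 4 times. The files give neither a genome build nor probe sequences, and coordinates and sequences are not reported. RefSeq's gene table holds a symbol for all of them except ANID_00075, for which the name prpA is used here as it came with the identifier.

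Proteins that enter the secretory pathway are folded in the lumen of the endoplasmic reticulum. An Hsp70 chaperone, BiP, binds unfolded chains, protein disulfide isomerases form and rearrange disulfide bonds, and calnexin holds glycoproteins until their glycans are trimmed. When unfolded proteins accumulate, the membrane sensor Ire1 splices the mRNA of a bZIP factor, called HacA in Aspergillus, which raises the transcription of chaperone and foldase genes. This is the unfolded protein response. Filamentous fungi secrete large amounts of enzymes and build their cell wall through the same pathway.

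Mycelia were grown at 37 °C in submerged culture in Barratt's minimal medium for 16 h and harvested 0.5 h after a stress agent was added. The untreated arrays stood beside those for amphotericin B (AmB) at 2 mM, an antifungal polyene of the membrane, CdCl2 at 0.2 mM, which brings the thiol-binding metal cadmium, and Congo Red at 10 mM, which disturbs the cell wall. The doses are those of the labels, and their units could not be checked. The strain labelled reference carries pyrG89, AfupyrG+, pyroA+ and veA+. The strain labelled deletion carries pyrG89, AfupyrG+, pyroA4, DatfA::pyroA and veA+, and is thus named as deleted for atfA, the gene of a bZIP factor of the stress response. Both strains share pyrG89, complemented with AfupyrG, and veA+, and the labels do not say whether the deletion strain is 1 transformant. Each combination of strain label and treatment had 1 array, which held total RNA pooled from 3 cultures. With no replicate arrays, precision is limited by their number.

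Before any result, the strain labels of the scanner files have to be set against atfA itself. Its probe was not well above background on the 4 arrays labelled reference, at processed signals of 2.3 to 3.09, and gave 3270 to 9710 on the 4 labelled deletion. It was thus at least 933-fold lower on the arrays labelled reference, against what the labels say. In the deposited value table, a second source of the same series, atfA was high in the reference columns (13.66 to 14.6 on the log2 scale) and low in the deletion columns (6.19 to 6.26). Set against the arrays across genes, all 8 columns correlated best with one of the opposite strain label, and 2 of the 8 also with another treatment: its reference untreated column matched the CdCl2 array labelled deletion, and its reference CdCl2 column the untreated array labelled deletion. Strain names are therefore used here only as labels of arrays, and a direction between strains means one between labels.

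Processed signals had a 75th percentile of 261.4 to 333.8 on both AmB arrays and of 1059 to 1864 elsewhere, and 7689 to 8478 probes an array were well above background. The array labelled reference for Congo Red shared a slide with the untreated, AmB and CdCl2 arrays labelled deletion, and the array labelled deletion for Congo Red lay on the other slide with those labelled reference. Of the conidiation genes, looked up as signs of another developmental state, wetA was well above background on 3 of 8 arrays, dewA on 4, abaA on 6 and brlA on 7. With AmB the fitted difference was 2.51 ± 0.61 for abaA (adjusted p = 0.0621 in limma) and -1.13 ± 0.37 for brlA (adjusted p = 0.106). The test of a strain difference particular to AmB was passed by abaA (-2.19 ± 0.36, adjusted p = 0.0403 in limma), in a fit without the slide that cannot tell it from a slide difference. Both probes were dim: abaA was not well above background on the AmB array labelled reference, nor brlA on the one labelled deletion. Processed signals of abaA under the reference label were 16.4 untreated and 10.9 with AmB, and under the deletion label 21.8 and 46.9. The hydrophobin gene rodA had levels of 1.04 to 1.71 under the reference label and of -2.14 to -0.62 under the deletion label, and it passed between them (3.32 ± 0.45, adjusted p = 0.0474 in limma). The part of these genes' state in the results was not tested.

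Levels are given as log2 of the processed signal minus the array's 75th percentile, so that 0 is the level of that percentile. They compare 1 probe across arrays, not one gene with another. In RNA from whole mycelium, fewer hyphae with a transcript and less of it per hypha cannot be told apart. All 5 probes were well above background on all 8 arrays, none had a saturated spot, and the SD between the spots of a probe was 0.018 to 0.111.

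Among the chaperones, bipA encodes the Hsp70 of the reticulum lumen. Under the reference label its level was 2.51 untreated, 0.76 with AmB, 3.80 with CdCl2 and 1.54 with Congo Red. Under the deletion label it was 1.12 untreated, -0.28 with AmB, 2.05 with CdCl2 and 2.28 with Congo Red. Both AmB arrays lay below all the others, and the CdCl2 array labelled reference lay above all the others. The processed signal behind these levels went from 215 to 16500. The span of bipA over the 8 arrays was 4.09, or 17-fold, and 90.5% of the 8633 genes tested had a smaller span.

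The second chaperone gene, clxA, encodes calnexin, which is anchored in the membrane of the reticulum. Its level on the arrays labelled reference was 2.59 untreated, -0.12 with AmB, 3.86 with CdCl2 and 1.78 with Congo Red. For the deletion label it was 1.52 untreated, 1.46 with AmB, 1.85 with CdCl2 and 2.18 with Congo Red. The extremes were both labelled reference, and the 4 arrays labelled deletion lay between them. The span of clxA was 3.99, or 15.9-fold.

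Of the foldase genes, pdiA encodes protein disulfide isomerase. Under the reference label it stood at 4.92 untreated, 2.07 with AmB, 5.69 with CdCl2 and 4.22 with Congo Red. On those labelled deletion it stood at 3.89 untreated, 3.19 with AmB, 4.64 with CdCl2 and 4.63 with Congo Red. Its lowest values were those of both AmB arrays, as for bipA, and its highest that of the CdCl2 array labelled reference. The span of pdiA was 3.62, or 12.3-fold.

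A second foldase gene, prpA, is known in Aspergillus niger for a protein related to protein disulfide isomerase. It read 1.91 untreated, 0.29 with AmB, 2.55 with CdCl2 and 1.56 with Congo Red on the arrays labelled reference. On the arrays labelled deletion it read 1.34 untreated, 1.04 with AmB, 1.44 with CdCl2 and 1.68 with Congo Red. The AmB arrays were again the lowest pair, and the 3 other arrays labelled deletion lay within 0.34 of each other. The span of prpA was 2.26, or 4.79-fold.

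The regulator, hacA, encodes the bZIP factor of the unfolded protein response, and its activity is set by splicing of its mRNA, which the array value of a single probe does not show. Its level was 4.13 untreated, 4.07 with AmB, 4.35 with CdCl2 and 3.72 with Congo Red on the arrays labelled reference. On those labelled deletion it was 4.13 untreated, 3.49 with AmB, 4.0 with CdCl2 and 4.37 with Congo Red. The untreated arrays gave the same value for both labels. The span of hacA was 0.88, or 1.84-fold, and 15.2% of the genes tested had a smaller one.

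**Figure D1:**
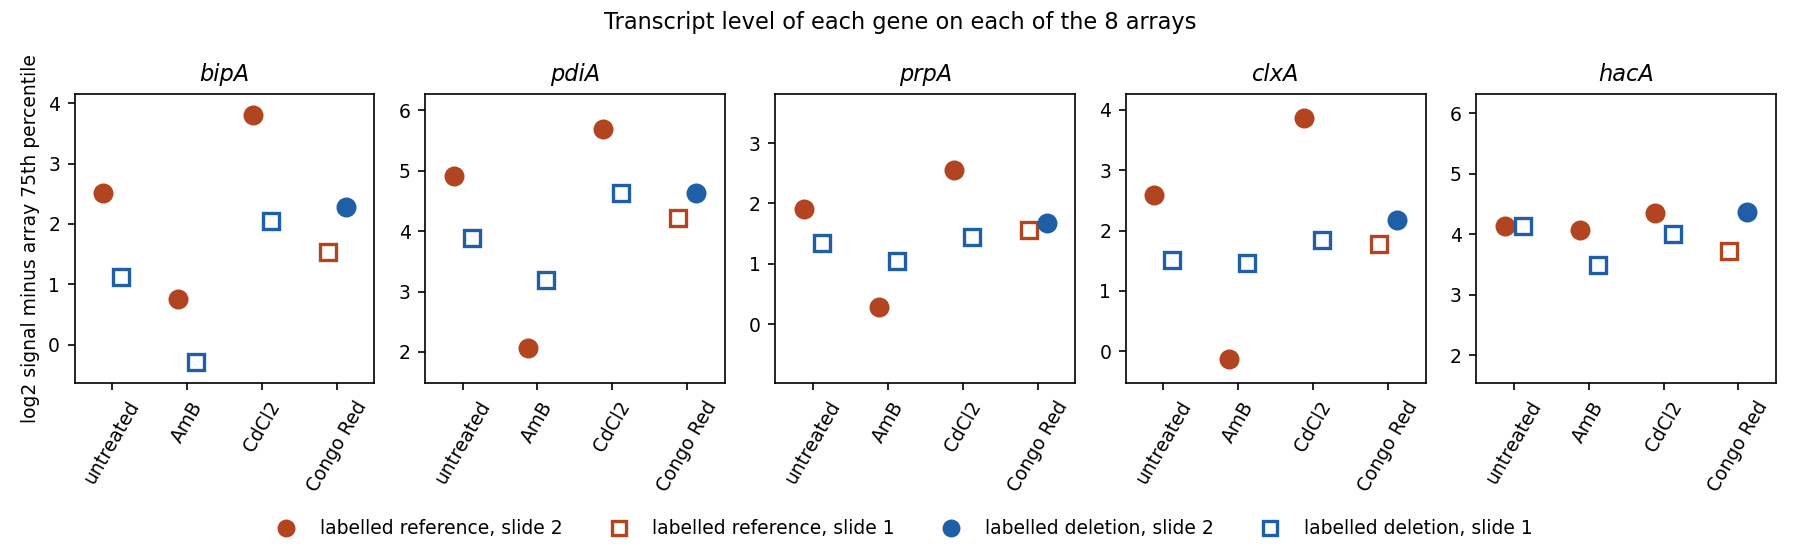
Level of each gene (log2 signal minus the array's 75th percentile, vertical axis) by treatment, with 1 point per array, by strain label and slide. The span is widest for bipA (4.09) and narrowest for hacA (0.88), and the CdCl2 array labelled reference is the highest of 8 for bipA, pdiA, prpA and clxA.

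AmB came with lower levels of bipA, the lumenal Hsp70, under both strain labels. The response, AmB minus untreated, was -1.75 under the reference label and -1.40 under the deletion label. In the fit over all 8 arrays bipA fell by 1.58 ± 0.32 (log2 difference ± its SE, adjusted p = 0.0454 in limma). It was the 1 gene of 5 to pass, where 3.1% of all genes tested passed as lower and 11.7% in either direction. At an unadjusted p under 0.05 the count was 2 of 5, against 34.3% of genes tested. All 5 genes had values below 0 under both labels, as had 36.3% of the genes tested. Since each group had 1 array, these p-values weigh a response against how far the strain labels depart from additivity, and they say nothing of variation among cultures.

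The other 4 genes did not pass in limma. For the disulfide isomerase gene pdiA the responses were -2.86 and -0.70 under the reference and the deletion label, with a fitted difference of -1.78 ± 0.63 (adjusted p = 0.125). The calnexin gene clxA differed most between labels, at -2.72 and -0.06, with a fit of -1.39 ± 0.89 (adjusted p = 0.312). For prpA the responses were -1.63 and -0.30, with a fit of -0.96 ± 0.52 (adjusted p = 0.242). The regulator gene hacA had -0.06 and -0.64, with a fit of -0.35 ± 0.31 (adjusted p = 0.448). Under the reference label 4 of 5 genes were at least 2-fold lower with AmB, as were 22.1% of genes tested. Under the deletion label only bipA of the 5 was, as were 11.7%. In the value table the AmB difference of bipA was -2.35 in the reference columns and -1.81 in the deletion columns, that of clxA was -0.34 and -2.65, and that of pdiA was -1.46 and -2.91. The AmB differences under the deletion label were also taken against its CdCl2 array, which the table pairs with its untreated column. They were -2.33 for bipA, -1.44 for pdiA, -0.51 for hacA, -0.41 for prpA and -0.40 for clxA. Beside bipA, pdiA was then over 2-fold lower, and hacA, prpA and clxA were not.

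The AmB call of bipA rested on few arrays. It was lost without the untreated array labelled reference (-1.58), the untreated array labelled deletion (-1.57) or either CdCl2 array (-1.58 each). The fitted difference hardly moved there. These fits left 1 residual degree of freedom and fewer genes of all passed in them, so such a loss is not particular to bipA. The call was also lost without a slide term (adjusted p = 0.111 in limma) and in the value table (-2.08, adjusted p = 0.066 in limma). Without the untreated and CdCl2 arrays labelled deletion, whose treatment labels the sources give crosswise, and without a slide term, bipA was -2.20 and its call was lost. Without the AmB array labelled deletion, the fitted differences of bipA, pdiA, prpA and clxA were -1.84, -2.86, -1.76 and -2.95. Without the AmB array labelled reference pdiA was -0.69, prpA was -0.17 and clxA was 0.17. The lower signal of the AmB arrays moved with this comparison, and its part in the result was not tested.

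Whether the difference between strain labels under AmB departed from its mean over the other 3 conditions was tested as a separate term, in a fit without the slide. The Congo Red pair lay on the slides in the opposite order to the other pairs. The term therefore also carries part of any slide difference, and these cannot be told apart. With a Congo Red array left out, as below, the remaining pairs all lay in the same order. For clxA the difference between labels was lower by 2.48 ± 0.92 (adjusted p = 0.147 in limma), for pdiA by 1.68 ± 0.67 (adjusted p = 0.17) and for prpA by 1.27 ± 0.53 (adjusted p = 0.181). The term was 0.24 ± 1.01 for bipA (adjusted p = 0.889) and 0.68 ± 0.47 for hacA (adjusted p = 0.375). None of the 5 passed, against 4.91% of genes tested, and clxA alone had an unadjusted p under 0.05 in limma, against 30.5%. With either Congo Red array left out, pdiA (-2.17, adjusted p = 0.0289 in limma) and clxA (-3.12, adjusted p = 0.0265) passed. So did 872 of the 8633 genes tested.

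**Figure D2:**
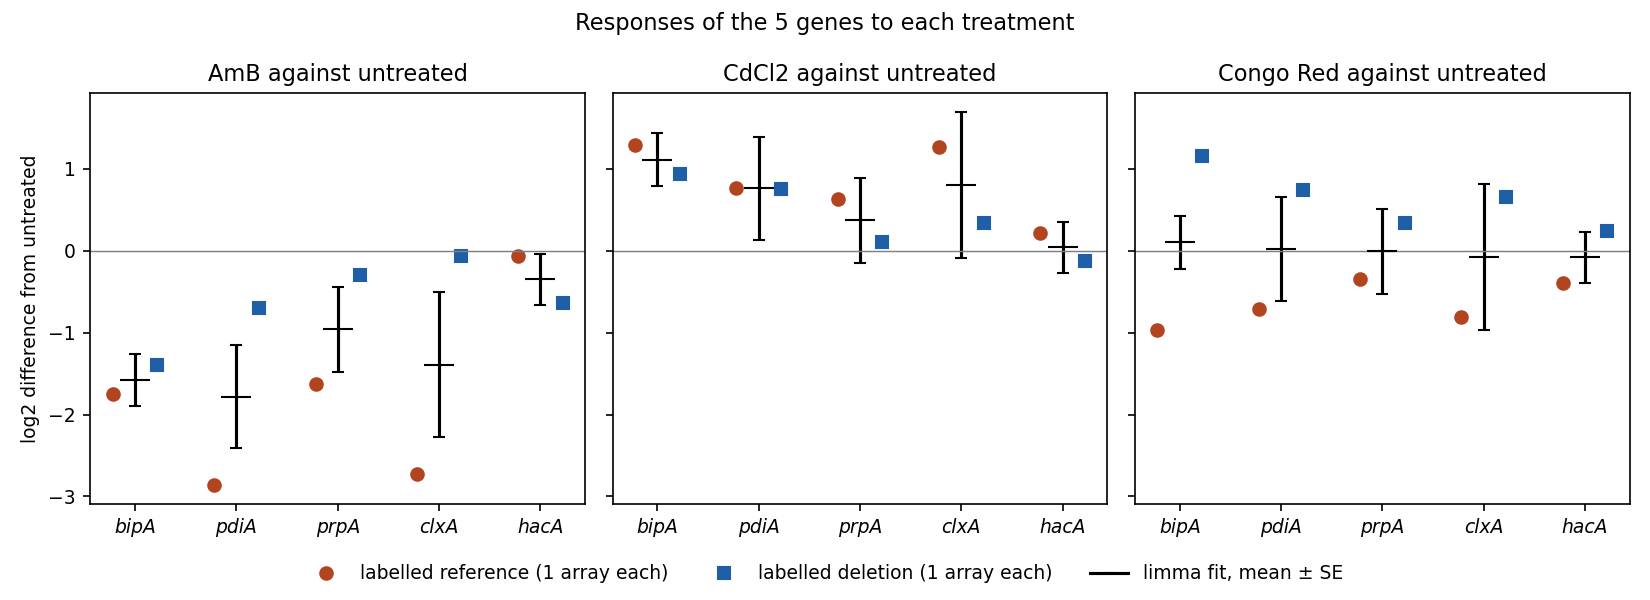
Difference from untreated (log2, vertical axis) for each gene under AmB, CdCl2 and Congo Red. Points are single arrays of each strain label, and the remaining mark with its bar is the limma fit ± SE. Under AmB bipA lies at -1.75 and -1.40, while clxA lies at -2.72 and -0.06, and under Congo Red every gene has one value below 0 and one above.

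CdCl2 came with higher bipA under both labels, by 1.29 on the array labelled reference and by 0.93 on the array labelled deletion. The fit gave 1.11 ± 0.32, with an unadjusted p of 0.0192 in limma, the 31st smallest of 8633, and an adjusted p of 1. None of the 5 genes passed, and neither did any other gene (0%), while 111 genes (1.29%) had an unadjusted p under 0.05 in limma. For clxA the values were 1.27 and 0.34 (fit 0.80 ± 0.89), for pdiA 0.77 and 0.75 (0.76 ± 0.63) and for prpA 0.63 and 0.11 (0.37 ± 0.52). The regulator gene hacA stood apart with 0.22 and -0.13 (0.04 ± 0.31). So 4 of 5 genes had values above 0 under both labels, as had 22.4% of the genes tested, and all are reported as not passing.

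The CdCl2 array labelled reference held the highest of 8 levels for bipA, pdiA, prpA and clxA, which held for 13.1% of genes tested. There bipA and clxA were at least 2-fold above untreated, as were 4.52% of genes. None of the 5 reached 2-fold on the array labelled deletion, where 0.556% did. The term for a strain difference under CdCl2 unlike that in the other conditions was 2.31 for clxA, 1.22 for pdiA, 1.20 for prpA, 1.19 for bipA and 0.37 for hacA, with an adjusted p of 1 in limma for each. No gene passed it (0%), with 151 (1.75%) at an unadjusted p under 0.05 in limma and 0 of the 5 among them. Like the AmB term, it was fitted without the slide and cannot be told apart from it. Leaving out the CdCl2 array labelled reference turned prpA to -0.23 and clxA to -0.33, and took pdiA to 0.21 and bipA to 0.84.

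The 2 deposited sources differed for CdCl2. In the value table, bipA was 1.21 higher with CdCl2 in the deletion columns and 0.88 on the log2 scale below untreated in the reference columns (-0.88). For pdiA the table gave 0.91 and -0.69, for clxA 1.23 and -0.33, for prpA 0.54 and -0.07, and for hacA 0.15 and 0.14, in the same order. These columns match the scanner arrays with the strain label turned, and for the reference untreated and CdCl2 columns with the treatment turned as well, so the sources differ in that pair. With the untreated and CdCl2 arrays labelled deletion exchanged, the fitted CdCl2 difference of bipA was 0.18 ± 0.60, that of clxA 0.47 ± 0.94 and that of pdiA 0.01 ± 0.72. Without those 2 arrays, in a fit without a slide term, only the pair labelled reference is left. The fit then returns the response of 1.29 for bipA under that label and checks nothing further. Which source carries the right treatment labels was not settled by these files.

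**Figure D3:**
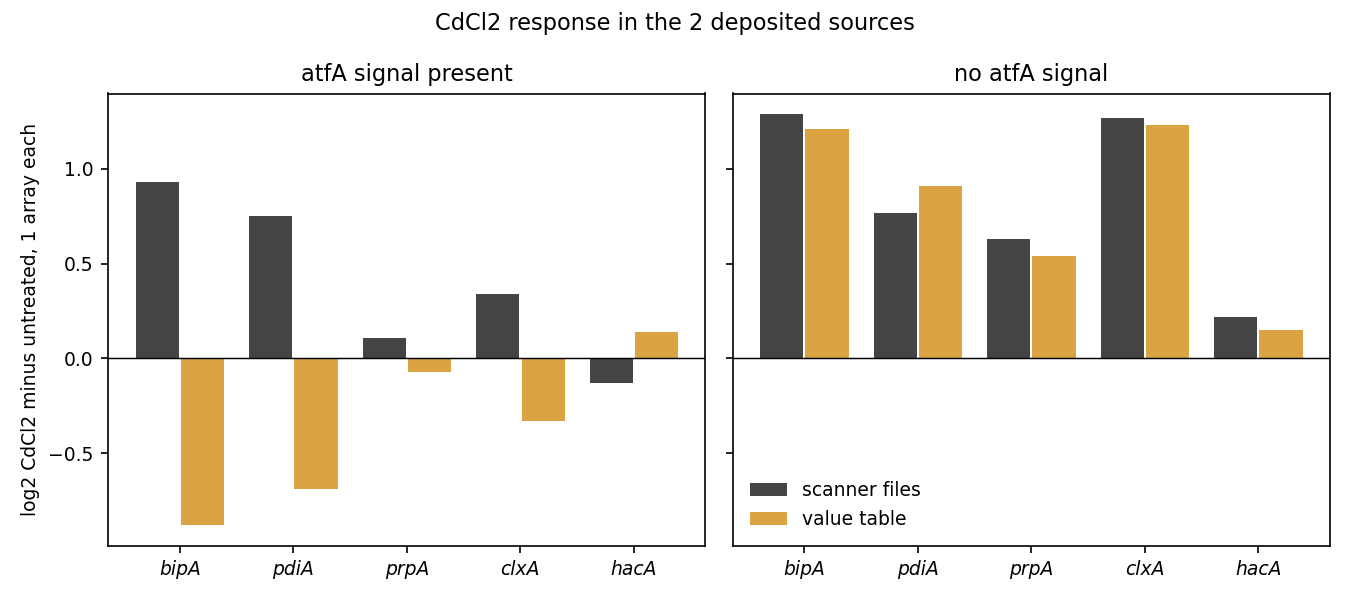
CdCl2 minus untreated (log2, vertical axis, 1 array or column each) for the 5 genes in the scanner files and in the value table, by atfA signal. The panel with atfA signal sets the arrays labelled deletion beside the table's reference columns. The panel without it sets the arrays labelled reference beside the deletion columns. For bipA the scanner files and the table give 0.93 and -0.88 with atfA signal, and 1.29 and 1.21 without it.

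With Congo Red the 5 genes lay on opposite sides of untreated under the strain labels, as the arrays are labelled. On the array labelled reference all 5 lay below untreated, from -0.97 for bipA, through -0.81 for clxA, -0.71 for pdiA and -0.40 for hacA, to -0.35 for prpA. On the array labelled deletion all 5 lay above, from 1.16 for bipA, through 0.74 for pdiA, 0.66 for clxA and 0.34 for prpA, to 0.24 for hacA. This pair of signs was found in 19.6% of genes tested. The mean over both labels was therefore small: 0.10 for bipA, 0.02 for pdiA, -0.01 for prpA, -0.08 for clxA and -0.08 for hacA. None passed in limma, against 0.0232% of genes tested, and none had an unadjusted p under 0.05, against 3.01%. Only bipA under the deletion label reached 2-fold, as did 2.76% of genes as higher there. In the value table the differences for Congo Red were 0.34 in the reference columns and -0.88 in the deletion columns for bipA, 0.44 and -0.81 for clxA, and 0.01 and -0.54 for pdiA. Against the CdCl2 array labelled deletion, in place of the untreated one, the Congo Red differences under that label were 0.24 for bipA, -0.01 for pdiA, 0.23 for prpA, 0.32 for clxA and 0.37 for hacA, so that pdiA was no longer above. Without both of those arrays, in a fit without a slide term, the fitted Congo Red difference of bipA was -0.52.

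The Congo Red values cannot be told apart from the slide, because under each strain label the Congo Red array was on another slide than the untreated one, in opposite order. Over the 6 arrays without AmB, all 3 of one slide exceeded all 3 of the other for bipA (2.28 to 3.80 against 1.12 to 2.05), for clxA (2.18 to 3.86 against 1.52 to 1.85) and for prpA (1.68 to 2.55 against 1.34 to 1.56). The same held for 3.19% of genes tested. For pdiA (4.63 to 5.69 against 3.89 to 4.64) and hacA (4.13 to 4.37 against 3.72 to 4.13) the ranges met. The fitted slide term was 1.07 ± 0.26 for bipA (unadjusted p = 0.0104, adjusted p = 1 in limma), and 45.5% of genes had a slide term above 0. It was 0.48 ± 0.25 for hacA, 0.45 ± 0.73 for clxA, 0.37 ± 0.52 for pdiA and 0.21 ± 0.42 for prpA. This term is set by the Congo Red pair against the other pairs. It thus restates the opposite Congo Red signs and is no separate sign of a slide difference.

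Between the strain labels, bipA was 0.33 ± 0.26 higher on the arrays labelled reference (adjusted p = 0.751 in limma), or 0.86 ± 0.43 without a slide term (adjusted p = 0.321). None of the 5 passed, against 1.86% of genes tested, or had an unadjusted p under 0.05, against 13%. The single pairs behind this, labelled reference minus labelled deletion, were 1.39 untreated, 1.04 with AmB, 1.76 with CdCl2 and -0.74 with Congo Red for bipA. They were 1.08, -1.58, 2.01 and -0.39 for clxA, and 1.04, -1.12, 1.06 and -0.41 for pdiA, in that order. Outside Congo Red, bipA was thus higher on every array labelled reference than on its partner, while clxA and pdiA were higher in the untreated and CdCl2 pairs and lower in the AmB pair. In these pairs the arrays labelled reference all lay on one slide and their partners on the other, and under Congo Red the order was reversed. In every pair bipA was higher on the same slide, so strain label and slide cannot be told apart. For prpA the pairs were 0.58, -0.75, 1.10 and -0.11. For hacA they were 0.00, 0.58, 0.35 and -0.65. With the slide fitted, the pair under Congo Red weighs as much as the other 3 pairs together. In untreated mycelium bipA, clxA and pdiA were at least 2-fold higher on the array labelled reference, as were 5.33% of genes. This rests on the untreated array labelled deletion: in the value table the untreated difference, reference minus deletion columns, was -0.46 for bipA, -0.79 for clxA and -0.21 for pdiA, none of them 2-fold. Those columns match arrays of the opposite strain label, so a value below 0 there has the same direction as on the arrays, at a smaller size. The reference untreated column matches the CdCl2 array labelled deletion.

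The neighbouring genes of the secretory pathway were taken from lists of 201 symbols, of which 28 were in the RefSeq table and 24 were not among the 5. With AmB, 1 of the 24 rose and 2 fell, where 8.61% of genes tested passed as higher and 3.1% as lower, and their median difference was -0.97 against -0.01 for all genes. Of all genes 743 passed as higher and 268 as lower, and after quantile normalization 530 and 480. The riser was cpcA (AN3675), the bZIP activator of cross-pathway control of amino acid synthesis, at 2.94 ± 0.38 (adjusted p = 0.0225 in limma). The Golgi GDP-mannose transporter gene gmtA (AN8848) fell by 2.44 ± 0.34 (adjusted p = 0.0248 in limma). The gene sly1 (AN2518), known in yeast for a partner of vesicle SNAREs, was not well above background on the AmB arrays and was at least 2.73-fold lower (adjusted p = 0.0413 in limma). With normexp background correction, gmtA was -0.56 (adjusted p = 0.217) and sly1 was 1.57. Without the untreated array labelled reference all 3 calls were lost in limma (adjusted p = 0.147, 0.206 and 0.268). Without the untreated array labelled deletion the calls of gmtA and sly1 were lost, and without either CdCl2 array that of sly1. In all these fits fewer genes of all passed as well.

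By role, the AmB values of these lists lay on different sides of 0. The list of glycosylation and Golgi supply held alg3, alg10 and cwh41 of N-glycan assembly and trimming, the O-mannosyltransferase genes pmt1, pmt2 and pmt4, gmtA and the Golgi ion pump gene pmr1. All 8 were below 0, as were 50.4% of genes tested, with a median of -1.40, and gmtA was the one that passed. Of 9 genes of traffic between the reticulum and the Golgi and of processing there, 8 were below 0, with a median of -0.84, which was the value of the processing protease gene kexB. Of 24 symbols of degradation of reticulum proteins looked up, 3 were found, and these were above 0 and did not pass. The gene npl4, known in yeast for a cofactor of the Cdc48 segregase, was at 1.49 ± 0.44. The gene cdc48 itself was at 1.16 ± 0.51 and png1, a peptide N-glycanase gene, at 0.78 ± 0.30. A further degradation gene, hrdA, was outside this list and was lower with AmB under both labels. Its level minus its own mean was 0.55 untreated and -1.54 with AmB under the reference label. Under the deletion label it was 0.17 and -0.78. Among regulators besides cpcA, ireA (AN0235), the gene of the Ire1 sensor, was 1.36 ± 0.46 (adjusted p = 0.115 in limma), with responses of 0.71 under the reference label and 2.00 under the deletion label. The regulator gene cpcC (AN2246) was -1.10 ± 0.32 (adjusted p = 0.0847 in limma). By comparison, all 7 chaperone genes outside the reticulum, of which hsp60 and hsp78 are known in yeast for mitochondrial chaperones, were above 0 with AmB, as were 49.6% of genes tested, with a median of 0.92. Of these 0 of 7 passed, against 8.61% as higher, and 1 of 7 had an unadjusted p under 0.05 in limma. The 5 reticulum genes had a median of -1.39.

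With CdCl2, 0 of the 24 passed, 18 were above 0 (46% of all genes were), and the median was 0.12 against -0.03 for all genes. The values farthest from 0 were those of alg10 (AN5902), known in yeast for a glucosyltransferase of glycan assembly, at -0.43 ± 0.31, the COPII coat gene sec13 (AN4317) at 0.39 ± 0.41 and png1 (AN3787) at -0.35 ± 0.30. The 7 chaperone genes outside the reticulum had a median of 0.76, the value of hsp60, and the 5 reticulum genes also had a median of 0.76. Their single-array medians were 1.56 labelled reference and -0.20 labelled deletion, against 0.77 and 0.34 for the reticulum genes. With Congo Red 0 of the 24 passed, against 0.0232% of genes tested, 6 were above 0, against 49.2%, and the farthest were alg10 at -0.53 ± 0.31, sly1 at -0.50 ± 0.40 and kexB (AN3583), a gene of a Golgi processing protease, at -0.29 ± 0.28. Between strain labels 0 of the 24 passed, against 1.86%, and the farthest were the signal peptidase gene sec11 (AN10354) at 0.78 ± 0.66, the vesicle coat scaffold gene sec16 (AN6615) at 0.67 ± 0.35 and npl4 (AN0295) at 0.55 ± 0.36. The 3 treatment comparisons share the untreated arrays.

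**Figure D4:**
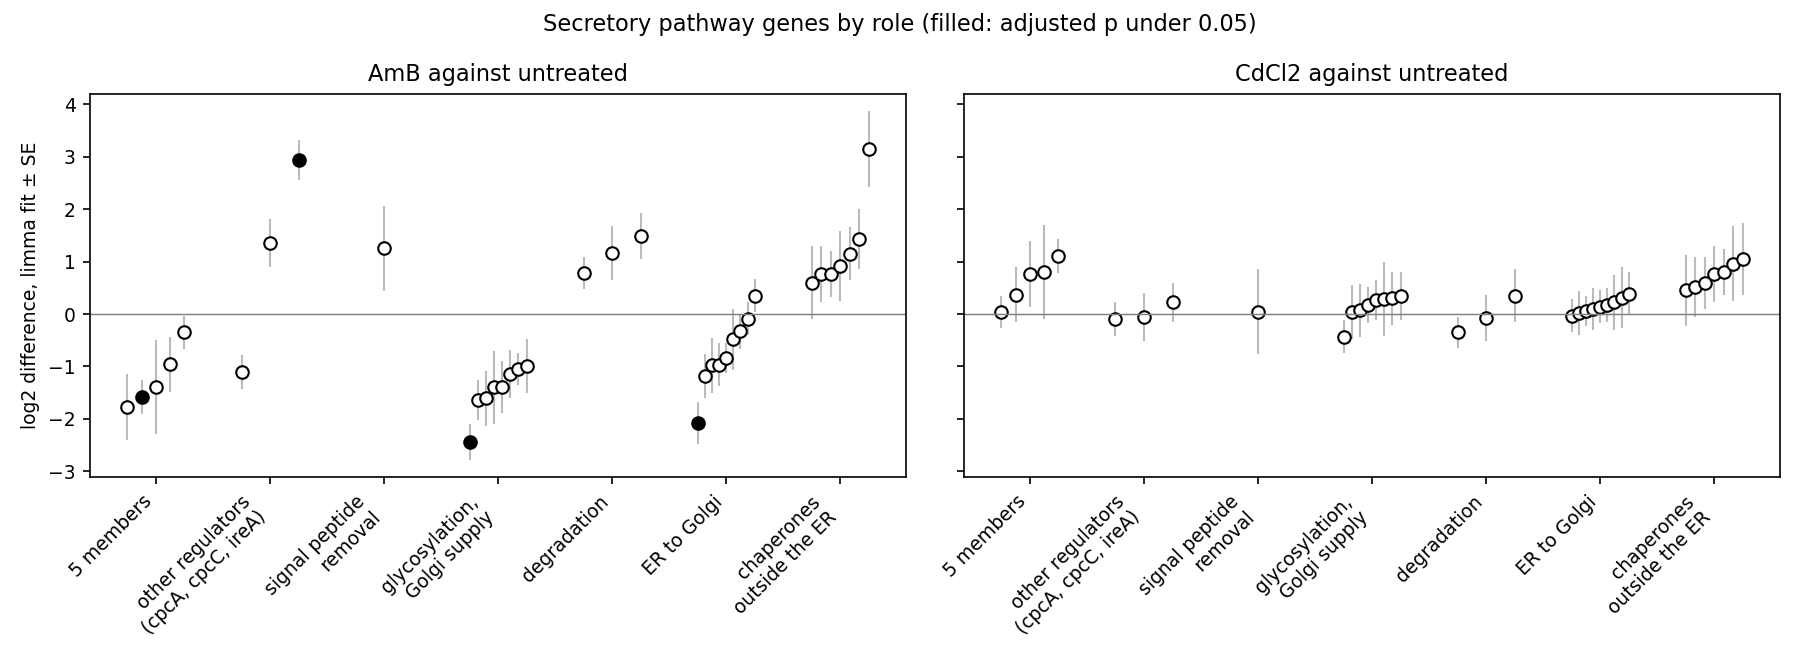
Fitted differences (log2 ± SE, vertical axis) of the secretory pathway genes by role, with 1 point per gene, for AmB and CdCl2. Filled points passed in limma: bipA, cpcA, gmtA and sly1 under AmB and none under CdCl2.

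The pattern of bipA over the 8 arrays was set against those of the 688 other genes with a symbol that were well above background throughout, each centred on its own mean. The nearest was pdiA, at a root-mean-square difference of 0.60 on the log2 scale. It was followed by aspC at 0.64, a septin gene, and by the protein O-mannosyltransferase genes pmt1 and pmt4, both at 0.65. Next came alg3 and hrdA at 0.66, of which alg3 is known in yeast for a mannosyltransferase of the reticulum and hrdA in Aspergillus fumigatus for a ubiquitin ligase of reticulum degradation. The last 2 of the 8 were asf1, a histone chaperone gene, and erg9, a squalene synthase gene, both at 0.67. Of the other reticulum genes, clxA ranked 11 (0.69), prpA 20 (0.72) and hacA 162 (0.96). Over all 7104 genes pdiA ranked 32. The ranking is a description over 8 arrays, which all genes share.

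**Figure D5:**
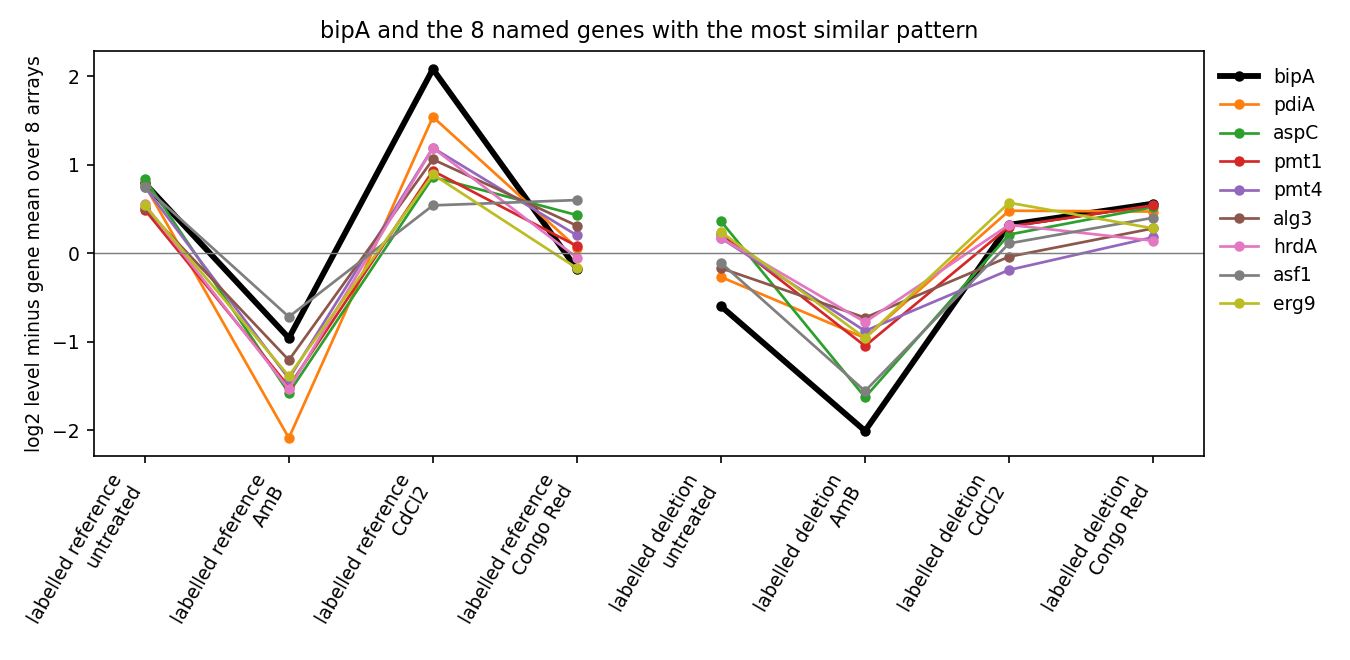
Level of bipA and of the 8 named genes nearest to it on each array (log2, each minus its own mean over 8 arrays, vertical axis), with arrays along the horizontal axis. Every line is lowest at the AmB arrays, and all except asf1, which is highest untreated (0.75), peak at the CdCl2 array labelled reference, where bipA is 2.08 above its mean.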

How the data were processed

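Total RNA of 8 samples was hybridised to single-colour (Cy3) Agilent arrays. The submitters' processing notes name Agilent Feature Extraction 12.0.3.1. The deposited scanner files hold a background-subtracted processed intensity per spot on a linear scale, per the file headers. The authors also deposited a value table on a log2 scale, whose normalization and centring are not given in the sources used here and whose columns rise with the scanner signals. Identifiers were matched to the RefSeq gene table of assembly ASM1142v1, and 9697 of 10550 probes matched, 776 of them with a symbol. Some symbols are those of orthologues.

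Control spots and spots with outlier flags (1.46% to 1.90% an array) were left out, the remaining spots of a probe were averaged as log2 processed signal, and the 75th percentile of each array was subtracted. Probes well above background on at least 2 arrays (8633, of which 7105 on all 8) were tested with limma 3.58.1 in R 4.3.3, with terms for strain label, treatment and slide and 2 residual degrees of freedom, and p-values were adjusted by Benjamini-Hochberg over all 8633 at 0.05. The slide was read from the scanner files' names. The dependence of the strain difference on AmB or CdCl2 was a further term in a fit without the slide, so it also carries part of any slide difference. The Congo Red pair is fitted exactly when the slide is a term and adds nothing to the spread. Normexp used the median spot signal with an offset of 50, since the files hold no mean signal. The alternatives were other background, scaling and filters, the value table, no slide term and arrays left out. Where the untreated and CdCl2 arrays labelled deletion were left out together, the fit had no slide term. The scripts were tested on simulated data. Genes were named by a fixed rule: all 5 members, list genes past the threshold (otherwise the 3 farthest from 0 in each comparison) and the 8 named genes nearest to bipA. Further genes are named beside their list with their values, chosen after those were seen. The members and lists were chosen with earlier results of these data known. Where a probe was below background on every array of a group, its fold is a bound, taken against the higher of its own signal and the dimmest detected probe.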

Additional observations from a re-analysis of the deposited data

Results flagged for a closer look

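As the arrays are labelled, the Congo Red responses had opposite signs under the 2 strain labels for all 5 genes, and the difference was not tested because it cannot be told apart from the slide. On the arrays labelled reference they were -0.97 for bipA, -0.71 for pdiA, -0.35 for prpA, -0.81 for clxA and -0.40 for hacA. On those labelled deletion they were 1.16, 0.74, 0.34, 0.66 and 0.24, in the same order. Taken from the CdCl2 array labelled deletion, which the value table pairs with its untreated column, the latter were 0.24, -0.01, 0.23, 0.32 and 0.37, a comparison chosen after seeing the data, so the signs were then not opposite for pdiA.

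The signal peptidase gene sec11 differed between strain labels under AmB from its mean difference over the other 3 conditions by 3.13 ± 0.44 (adjusted p = 0.0307 in limma), with AmB responses of 2.75 under the reference label and -0.26 under the deletion label. The term compares 1 pair of AmB arrays with 3 other pairs, and the call was lost without either untreated array (3.19 each). Fewer genes of all passed in those fits as well. In the value table, whose columns all matched arrays of the opposite strain label, the term was -2.38 (adjusted p = 0.0244 in limma). The term was fitted without the slide and cannot be told apart from it, since the Congo Red pair lay on the slides in the opposite order to the other pairs.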

How the results depend on the processing

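The arrays were 1 per group, so each p-value rests on additivity between strain labels, on 2 residual degrees of freedom, and dim probes limit AmB. The fits compare treatments within a strain label, and no block by replicate could be added, since the labels carry no replicate numbers. The bipA response to AmB was below 0 in all 17 alternatives (-2.20 to -1.31, adjusted p 0.00469 to 0.358 in limma) and kept its call in 9. The count of the 5 genes that passed for AmB, 1 of 5, was 2 with normexp, where 4069 of the 8633 genes tested passed. It was 0 with the value table, without a slide term, without the CdCl2 pair and without the untreated and CdCl2 arrays labelled deletion. Leaving out each array gave 0 to 4. For the dependence on AmB the count of 0 became 1 with normexp, where 823 of the 8633 genes passed, and ranged from 0 to 2 over left-out arrays. Over left-out arrays the counts of all genes, given below, varied as well. The bipA difference for CdCl2 was above 0 in all 18 alternatives (0.17 to 1.38) and passed in none.

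Of 8633 genes, 1011 passed for AmB, against 4069 with normexp, 3319 without a filter, 1987 without the slide term, 568 without the CdCl2 pair, 424 without the untreated and CdCl2 arrays labelled deletion, and 90 to 4373 over left-out arrays. The median AmB difference of all genes was -0.01, and -0.27 after quantile normalization, -0.12 after median scaling, 0.68 with normexp, 0.31 without a filter and -0.20 in the value table. For Congo Red the 2 calls became 7 with normexp, 63 without the AmB pair, 3 without the CdCl2 pair and 0 with quantile normalization, with the stricter filter, in the value table, without the slide term and without the untreated and CdCl2 arrays labelled deletion, and 0 to 63 over left-out arrays. The 161 strain calls became 83 with the stricter filter, 107 in the value table, 522 without the slide term and 129 to 1139 over left-out arrays. The 424 AmB dependence calls became 823 with normexp, 1413 with quantile normalization, 665 with median scaling, 621 with the stricter filter, 1013 in the value table and 0 to 872 over left-out arrays.

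Signs turned as follows, and the cause was not tested except where the table's strain labels are turned by its own columns. With normexp sly1 was 1.57 for AmB, and with quantile normalization prpA was 0.04 for Congo Red. In the value table, CdCl2 gave -0.02 for sec13 and 0.07 for png1, and Congo Red gave -0.27 for bipA, -0.27 for pdiA, 0.02 for prpA and 0.03 for hacA. Its strain differences were -0.29 for bipA, 0.04 for pdiA, -0.10 for prpA, -0.04 for clxA, 0.18 for hacA, -0.65 for sec11, -0.30 for sec16 and -0.37 for npl4. Its AmB dependence was -0.24 for bipA, 1.80 for pdiA, 1.18 for prpA, 2.41 for clxA and -0.33 for hacA, and its CdCl2 dependence -2.32, -2.27, -1.19, -2.74 and -0.24, in the same order. Without the slide term the strain difference was 0.14 for pdiA and 0.07 for hacA. Without the untreated and CdCl2 arrays labelled deletion, and without a slide term, Congo Red gave -0.52 for bipA and -0.89 for pdiA. With those arrays exchanged, CdCl2 gave 0.14 for png1.

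Over left-out arrays, the AmB difference of clxA ran from -2.95 to 0.17 and the AmB dependence of bipA from -0.53 to 0.72. The CdCl2 differences ran from -0.33 to 1.94 for clxA, -0.23 to 0.96 for prpA and -0.19 to 0.28 for hacA. For Congo Red they ran from -0.51 to 0.35 for clxA, -0.52 to 0.55 for pdiA, -0.21 to 0.19 for prpA and -0.31 to 0.15 for hacA. The strain differences ran from -0.32 to 0.57 for clxA, -0.23 to 0.32 for pdiA and -0.10 to 0.36 for prpA. Leaving out a Congo Red array for Congo Red or strain, or the treated array for its own dependence term, left nothing to estimate.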
